A study of Mus musculus with 171 samples.

Results

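Protein-folding genes of 6 symbol families, the heat shock proteins, J proteins, cytosolic chaperonin, protein disulfide isomerases, cyclophilins and FK506-binding proteins, were followed across mouse tissues. A gene was taken where a spotted probe had exactly 1 symbol and that symbol began with Hsp, Dnaj, Cct, Pdia, Ppi or Fkbp followed by the letters or digits usual for these families. This gave 41 genes of 5751 named genes, measured by 53 probes, and 1 probe stood for each gene. There were 13 J proteins, 6 cyclophilins, 5 members of the Hsp70 and Hsp110 group, 5 small heat shock proteins, 4 subunits of the cytosolic chaperonin, 4 FK506-binding proteins, 3 protein disulfide isomerases and the mitochondrial chaperonin gene Hspd1. Dnajc8 (source means -0.35 to 0.42) and Hspb8 (-0.83 to 0.21) had values in 9 sources only and were not tested, which left 39 tested genes.

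Chaperones keep unfolded or newly made proteins from aggregating and help them reach their shape. Hsp70 proteins bind and release exposed stretches of protein under the control of J proteins, the chaperonin ring of Cct subunits folds actin, tubulin and other proteins inside its cavity, and small heat shock proteins hold unfolding proteins until they can be refolded. In the endoplasmic reticulum (ER), where secreted and membrane proteins are made, disulfide isomerases form disulfide bonds, while cyclophilins and FK506-binding proteins turn the peptide bonds next to proline.

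The series holds 171 spotted arrays of 88 mouse RNA sources, with 2 arrays for 83 of them and 1 array each for pancreatic islets, activated CD4 T cells and the tumours Duo59, Duo72 and Jej3. Each array compared tissue RNA with a universal mouse reference RNA, and a value is a log ratio, here centred on each array's median. Deposited values of nearly every probe had a median near 0 across arrays, so 0 is not the level of the reference. The sources were 38 untreated adult sources of 23 organs, developing organs, and the treated, transgenic and tumour sources named with their comparisons below. Ages were given as embryonic or postnatal days for developing organs and otherwise at most as adult, and sexes and numbers of animals were not given. FVB/N was named for the kidney injured by folic acid and C57 for the spleen, and WT or wt was part of the labels of the numbered proximal jejunum source and of the brain at E18.5. The transgenic heart was labelled hyperdynamic, and Mek is part of its name and of its control's, with no promoter given. The arthritis, bowel resection and adjuvant labels likewise name the state only.

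Arrays gave 5137 to 8658 values (median 8638), and the number of arrays limits the precision. Where 2 arrays were set against 2, full separation was also seen for many genes that did not pass the test. Such separation carries little weight on its own. The correlation between the arrays of a source ran from 0.381 to 0.987 over all probes (median 0.869) and from -0.0893 to 0.993 over the chaperone genes (median 0.867). Whether 2 arrays of 1 source stem from different animals is not stated by the labels. In comparisons fitted on arrays, p-values therefore measure only the spread between arrays, which may be technical. The secretory, muscle, nervous, early stage and tumour comparisons used source means, and their p-values measure the spread between sources, organs or tumours. Scale and direction of the deposited ratios are not stated. They were read as likely log2 of tissue over reference. Read this way, liver, striated muscle, islets, testis and nervous tissue were each high in some or all measured markers of their own. The muscle marker Tnnt2 was not higher in striated muscle. Xdh, the only measured milk gland marker, did not pass the test in lactating against involuting gland. Values are given below. With each probe centred across arrays, 356 of 14535 pairs of arrays had r below -0.3. Deposited array medians ran from -0.919 to 0.236.

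Across all sources the chaperone genes varied about as much as other genes. The gap between a gene's highest and lowest source mean had a median of 2.49 over the members, against 2.76 over all named genes, and the median standard deviation between sources was 0.49 against 0.50. By family, this median gap was widest for the FK506-binding proteins (3.07) and narrowest for the cytosolic chaperonin (2.23). The widest single ranges were those of the mitochondrial J protein Dnajc15 (4.86, from lactating mammary gland to testis), the mitochondrial cyclophilin Ppif (4.68, from lactating mammary gland to control heart) and Dnajb6 (4.53, again from lactating mammary gland to testis). Blood mononuclear cells held the highest mean of 5 genes and the lowest of 3, the control heart the highest of 6, and lactating mammary gland the lowest of 6 of the 41. The arrays of these sources had wide values. The range between their quartiles was 0.97 and 1.29, 1.14 and 1.18, and 1.55 and 1.63 in that order. Over all arrays its median was 0.61. The part of this spread in the extremes was not tested.

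Secretory organs came first: thyroid, adult fed liver, lactating mammary gland and pancreatic islets were compared as 4 sources with 35 other adult sources. The J protein Dnajb11, a co-chaperone of the ER Hsp70 protein, and the disulfide isomerase Pdia2 were higher. Source means of Dnajb11 were 0.03, 0.51, 0.70 and 1.25 in islets, lactating mammary gland, thyroid and liver, against -0.41 to 0.60 (median -0.07) elsewhere. Islets and lactating mammary gland lay inside the range of the other organs, so the groups overlapped, and the difference was 0.59 ± 0.17 (SE of limma, adjusted p = 0.04). Pdia2 ran from -0.01 in islets to 1.17 in liver, against -0.52 to 0.48, with islets and thyroid (0.25) inside that range (0.51 ± 0.16, adjusted p = 0.048).

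These were 2 of 39 genes higher and 0 lower, where 2.27% of all 8638 tested probes were higher and 3.13% lower. The median difference was 0.14 over the members and 0.01 over all probes, and 0.46 over the 12 members known from the ER, of which 2 were higher and 0 lower. Of 23 other genes of ER folding and secretion, 20 had a positive difference and 0 passed the test in either direction (median 0.42). Both gene calls were lost with deposited values (0.45 and 0.37, adjusted p = 0.13 and 0.15), where 0 members were higher and 2 lower, and with quantile normalization 0 were called by limma (7 at an unadjusted p under 0.05). Without islets 9 members were higher, without liver 1 was lower and 0 higher, and without lactating mammary gland 0 (7 at an unadjusted p under 0.05). Pdia2 rests on 1 probe, and a second probe of the gene did not follow it across sources (r = -0.18 over 88 sources sharing the arrays).

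Thyroid carried the highest adult level of the ER disulfide isomerase Pdia4. Its 2 arrays read 2.17 and 2.20, against source means of -1.42 to 2.07 in the other adult sources, where the epididymis tail came next. Both thyroid arrays lay above all other adult source means, and the difference from the mean of the other organs was 2.28 ± 0.15 (adjusted p = 1.2e-24). A second probe of Pdia4 followed the first across the 88 sources (r = 0.90). Dnajc3, an ER J protein that also restrains the stress kinase PERK, read 1.54 and 1.52 against -0.94 to 1.49, above all but close to liver (1.37 ± 0.17, adjusted p = 2.8e-10). Fkbp2, an ER proline isomerase, read 1.29 and 1.44 against -1.05 to 1.11, above all others (1.34 ± 0.14, adjusted p = 1.9e-13). The promoters of Dnajc3, Pdia4 and Dnajb11 are shown because these genes were higher together in thyroid and in liver and their upstream sequences hold letters searched for: the ER stress element in Dnajc3 and CCAAT boxes in the others, in capitals. They are the 250 bases upstream of the RefSeq start in GRCm38.p6, at chr14:118937682-118937931 (plus strand), chr6:47813513-47813762 (minus strand) and chr16:22857595-22857844 (plus strand).
Dnajc3: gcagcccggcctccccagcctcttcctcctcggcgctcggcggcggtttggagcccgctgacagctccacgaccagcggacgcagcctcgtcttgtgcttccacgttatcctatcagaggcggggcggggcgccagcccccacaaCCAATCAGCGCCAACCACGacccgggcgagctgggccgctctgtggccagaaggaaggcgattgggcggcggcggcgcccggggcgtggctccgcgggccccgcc
Pdia4: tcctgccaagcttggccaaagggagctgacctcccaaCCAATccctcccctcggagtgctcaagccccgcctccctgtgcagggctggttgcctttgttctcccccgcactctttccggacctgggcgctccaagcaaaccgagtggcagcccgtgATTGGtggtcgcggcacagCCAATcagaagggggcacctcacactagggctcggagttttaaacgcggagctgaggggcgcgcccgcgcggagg
Dnajb11: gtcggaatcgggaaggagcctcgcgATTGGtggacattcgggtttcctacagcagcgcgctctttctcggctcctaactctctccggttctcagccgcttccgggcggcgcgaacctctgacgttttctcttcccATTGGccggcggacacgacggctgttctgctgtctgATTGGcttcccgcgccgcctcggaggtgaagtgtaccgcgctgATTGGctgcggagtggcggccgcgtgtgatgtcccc

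The ER stress element was searched as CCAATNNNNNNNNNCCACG on both strands in the 250 bases before each start. It was found in 37 of 32851 mouse promoters (0.113%) and, of 33 members with a promoter, in Dnajc3 alone, at bases -105 to -87. Its first letters are themselves a CCAAT box, a motif found in 33.9% of promoters and in 14 of the 33 members. A match describes letters and not a site in use.

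In thyroid 8 of 39 chaperone genes were higher and 2 lower, where 10.3% of probes were higher and 20.4% lower, and the median difference was 0.12 over the members and -0.01 over all probes. Of the 12 ER members 7 were higher, namely Pdia4, Dnajc3, Fkbp2, the collagen-folding cyclophilin Ppib (0.68 ± 0.12), Dnajb11 (0.63 ± 0.11), the membrane J protein Dnajc1 (0.62 ± 0.17) and Fkbp9 (0.41 ± 0.14), with adjusted p of at most 0.023. The ER isomerase Fkbp7 was lower (-0.55 ± 0.18, adjusted p = 0.013). Of the 23 other ER folding genes 15 were higher and 1 lower (median 0.52), led by Creld2 (2.42), the lectin chaperone Calr (2.17) and the oxidase Ero1b (1.41). Of 16 genes of the unfolded protein response 3 were higher and 3 lower.

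The nuclear cyclophilin Ppie was also higher in thyroid (0.27 ± 0.10, adjusted p = 0.031) and the heat-inducible J protein Dnaja1 lower (-0.38 ± 0.14, adjusted p = 0.024, and 0.054 with deposited values). With either thyroid array left out, 5 or 6 genes were called, and Pdia4, Dnajc3, Fkbp2, Ppib and Dnajb11 were among them both times. With 1 mean per source as the unit, where the spread is that between organs, 0 were called by limma (2 at an unadjusted p under 0.05). No thyroid follicle marker was measured. The muscle marker Mb was higher in thyroid (3.46 ± 0.29, mean 3.99 against -1.34 to 5.69), while the other muscle marker Tnnt2 was not (-0.05), and the brown fat marker Cidea was higher (2.18), and their part in these values was not tested.

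**Figure D1:**
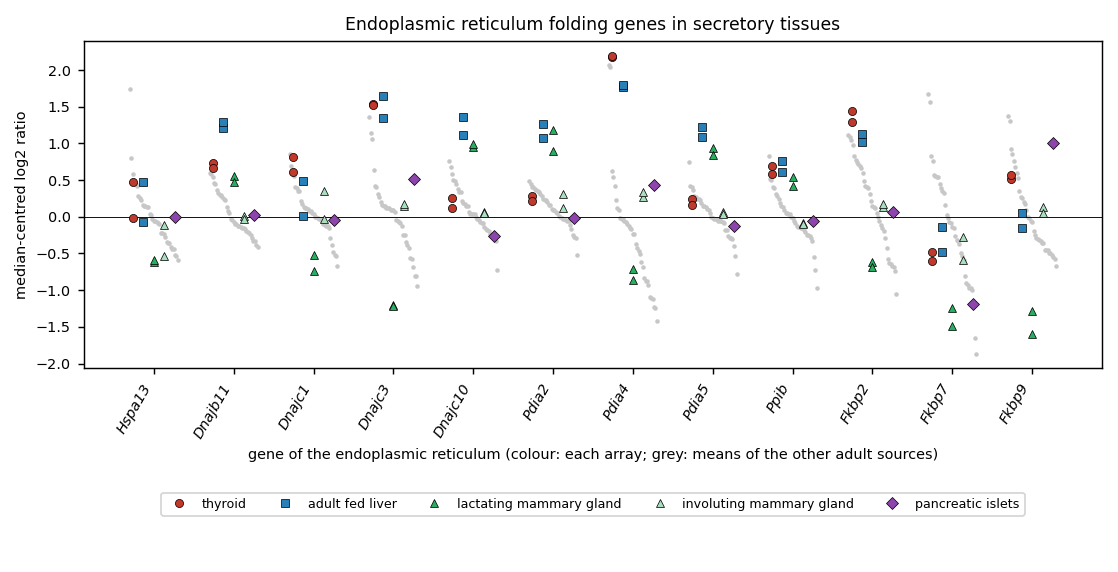
Mean log2 ratio of 12 ER chaperone genes (vertical axis) in thyroid, adult fed liver, lactating and involuting mammary gland and islets, with single arrays as points and the other adult sources as grey dots. Pdia4 is at 2.17 and 2.20 in thyroid and at -0.87 and -0.72 in lactating mammary gland.

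Adult fed liver had 22 of 39 chaperone genes higher and 6 lower than the mean of the other organs, where 31.1% of probes were higher and 27.9% lower. The median difference was 0.38 over the members and -0.03 over all probes. All 3 disulfide isomerases were higher: Pdia4 read 1.77 and 1.79 (1.86 ± 0.15, adjusted p = 1.7e-20), Pdia5 1.09 and 1.22 (1.14 ± 0.19, adjusted p = 3.1e-07) and Pdia2 1.07 and 1.26 (1.07 ± 0.14, adjusted p = 1.1e-10). The liver arrays of Pdia5 and Pdia2 lay above all other adult source means, while Pdia4 was exceeded by thyroid and epididymis. Among J proteins of the ER, Dnajb11 read 1.21 and 1.30 against -0.41 to 0.70 (1.22 ± 0.11, adjusted p = 2.3e-16), and Dnajc10, a disulfide reductase, 1.11 and 1.37 against -0.73 to 0.76 (1.17 ± 0.17, adjusted p = 2.4e-09). Both lay above every other adult source. Of the 12 ER members 8 were higher and 0 lower (median 1.05), and 17 of the 23 other ER folding genes were higher and 0 lower (median 0.70), led by the cargo receptor Lman1 (2.81). Of 16 genes of the unfolded protein response 10 were higher and 5 lower.

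Mitochondrial members were also higher in liver, 5 of 6 with 0 lower, and of 7 other genes of mitochondrial protein quality control 4 were higher and 0 lower, led by the unfoldase Clpx (3.34). Of these 5 members Hspa9 and Dnajc11 held under both other scalings. With deposited values Dnajc15 (0.02, adjusted p = 0.89), Ppif (0.24, adjusted p = 0.11) and Dnajc30 (-0.04, adjusted p = 0.75) lost their calls, the first and the last also with quantile normalization. The mitochondrial Hsp70 gene Hspa9 read 1.18 and 1.29 against source means of -1.86 to 1.19 (1.43 ± 0.17, adjusted p = 6.9e-12), and its second probe followed it across sources (r = 0.81). Dnajc11, a J protein of the inner membrane organising complex, differed by 1.32 ± 0.17 (adjusted p = 1.2e-10) and lay above every other adult source. Second probes of Dnajc11 (r = 0.49) and Dnajc30 (r = 0.40) followed the ones used only in part across sources, a limit wherever these genes are named. The 6 lower genes were the cyclophilin Ppic (-1.08 ± 0.22), the muscle chaperone Hspb2 (-0.95 ± 0.30), Dnajb6 (-0.78 ± 0.15), the endothelial Hsp70 relative Hspa12b (-0.62 ± 0.14), Dnajc27 (-0.56 ± 0.22) and the cardiac chaperone Hspb7 (-0.34 ± 0.13), with adjusted p of at most 0.023. Neither of the other probes of Hspa12b followed the one used across sources (r = -0.01 and 0.06).

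Both measured hepatocyte markers, Apob (3.28) and Fgb (6.80), were higher in the liver arrays. Deposited liver arrays had medians of -0.36 and -0.40, and without centring the median difference of all probes was -0.39 and the split 14 higher and 10 lower. Of the 28 calls, 13 higher and 4 lower held under both other scalings. With the source as the unit 7 were called, all higher: Dnajb11, Dnajc10, Dnajc11, Fkbp4, Hspb11, Pdia2 and Pdia5. The co-chaperone Fkbp4 (1.13 ± 0.18) rests on a probe that the gene's other probes did not follow across sources (r = -0.13 and 0.05).

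In mammary gland, milk secretion was compared with involution, the regression after weaning. Lactating gland had 17 of 39 chaperone genes higher and 14 lower, where 28.7% of probes were higher and 26.6% lower, with a median of -0.01 over the members and 0.09 over all probes. The ER members split, 5 higher and 6 lower of 12. Fkbp9 read -1.28 and -1.59 in lactating and 0.13 and 0.05 in involuting gland (-1.53 ± 0.20, adjusted p = 1.2e-09). Dnajc3 read -1.20 and -1.21 against 0.15 and 0.18 (-1.37 ± 0.24, adjusted p = 1.5e-06). Pdia4, highest in thyroid, read -0.87 and -0.72 against 0.27 and 0.34 (-1.10 ± 0.20, adjusted p = 5.3e-06). All lactating arrays lay below both involuting arrays for these 3 genes.

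Other ER members went the opposite way in lactation. Dnajc10 read 0.96 and 0.99 against 0.07 and 0.05 (0.91 ± 0.23, adjusted p = 0.00065), and Pdia2 and Pdia5 differed by 0.83 ± 0.19 and 0.84 ± 0.27, with the lactating arrays above both involuting arrays each time. Among cytosolic and mitochondrial genes, the chaperonin subunit Cct2 (-1.24 ± 0.23), Dnajb6 (-1.19 ± 0.20), Hspa9 (-1.25 ± 0.24) and the abundant cyclophilin Ppia (-1.06 ± 0.31) were lower, with adjusted p of at most 0.0031. The small heat shock protein Hspb6 (0.87 ± 0.22, adjusted p = 0.00073) was higher.

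Lactating arrays had the widest values of the series. The range between the quartiles of their values spanned 1.55 and 1.63, against a median of 0.61 over all arrays and 0.44 and 0.55 in involution. With deposited values 6 chaperone genes were higher and 16 lower, and the median of all probes moved to -0.23, while quantile normalization, which makes the spreads equal, called 6 higher and 3 lower. Called in the same direction under all 3 scalings were 8 genes: Dnajc10, Dnajc11, Dnajc30, Hspb6 and Pdia2 higher and Dnajc3, Fkbp9 and Pdia4 lower. Cct3 was lower by the main scaling (-0.52) and at 0.01 with quantile normalization. The 1 measured milk gland marker, Xdh, did not pass the test (-0.18).

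Other markers differed between lactating and involuting gland. Cidea, the only measured gene of the adipocyte list, was higher (2.99), which alone does not measure the share of fat cells. Of 4 leukocyte markers Cd53 (0.81) and Tyrobp (0.82) were higher and Ptprc lower (-1.18). Of 4 plasma and B cell markers Cd79a was higher (0.87) and Jchain (-2.35) and Igh (-1.40) lower. Both kidney tubule markers, Slc34a1 (0.88) and Kap (0.97), were higher, and of 8 markers of dividing cells 1 was higher and 3 lower. The part of other cell types in the mammary values was not tested. Of the 23 other ER folding genes 6 were higher and 9 lower, led by Srprb (1.01) and Calr (-2.63).

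Pancreatic islets, with 1 array assumed to vary like the others, had 1 of 39 chaperone genes higher and 5 lower than other organs, where 4.33% of probes were higher and 9.13% lower (median -0.18 over the members and -0.05 over all probes). Fkbp9 was higher at 1.00 (0.89 ± 0.20, adjusted p = 0.00077), inside the range of the other sources. Ppig, a nuclear cyclophilin of the splicing machinery, was at -1.35, below every other adult source (-0.64 to 1.09; -1.40 ± 0.29, adjusted p = 0.0002). Fkbp7 (-1.23), Dnajc15 (-0.90), Ppif (-0.87) and Dnajb6 (-0.70) were lower within the range of the others. These 6 calls held under both other scalings, while quantile normalization called 5 higher and 7 lower, and with the source as the unit 0 were called by limma (1 at an unadjusted p under 0.05).

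In the islet array 8 of the 23 other ER folding genes were higher and 1 lower, led by Lman1 (1.76), while 1 of the 12 ER members was higher and 1 lower. Of the markers, the islet hormone gene Sst was higher (3.86), and so was Clps (5.20), 1 of 3 measured exocrine pancreas markers. The part of exocrine RNA in these values was not tested.

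In testis several J proteins lay far above the other organs. Dnajc15 read 3.50 and 3.45, against source means of -0.76 to 1.15 in the other adult sources (3.39 ± 0.14, adjusted p = 1.8e-37). Dnajb6, a J protein that holds back aggregation, read 3.03 and 2.99 against -0.73 to 1.17 (3.12 ± 0.15, adjusted p = 1.5e-34). Dnajb1, the heat-inducible J protein that works with cytosolic Hsp70, read 2.81 and 2.57 against -0.81 to 0.59 (2.66 ± 0.14, adjusted p = 5.1e-32). Both testis arrays lay above all other adult source means for these 3 genes. Dnajc27, a J protein with a GTPase-like domain, read 2.33 and 2.63 (2.32 ± 0.22, adjusted p = 7.4e-16), with hypothalamus at the same level (2.50). The promoters of Dnajb6 and Dnajc27 are shown for the stretches they hold in capitals, a heat shock element and a cyclic AMP response element. They lie at chr5:29735648-29735897 and chr12:4082324-4082573 (both plus strand, GRCm38.p6, RefSeq).
Dnajb6: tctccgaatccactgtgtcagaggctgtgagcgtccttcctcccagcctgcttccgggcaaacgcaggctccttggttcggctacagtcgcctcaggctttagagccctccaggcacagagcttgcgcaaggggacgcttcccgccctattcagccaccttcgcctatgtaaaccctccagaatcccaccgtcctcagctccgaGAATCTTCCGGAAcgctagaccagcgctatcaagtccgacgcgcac
Dnajc27: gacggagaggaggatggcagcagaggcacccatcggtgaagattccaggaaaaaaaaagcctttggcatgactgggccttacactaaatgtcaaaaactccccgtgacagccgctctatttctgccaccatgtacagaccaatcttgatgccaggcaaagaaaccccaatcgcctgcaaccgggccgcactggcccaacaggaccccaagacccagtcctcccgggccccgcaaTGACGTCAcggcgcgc

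The heat shock element was searched as GAANNTTCNNGAA and its reverse complement TTCNNGAANNTTC. It was found in 153 of 32851 promoters (0.466%) and in 2 of the 33 members, Dnajb6 (bases -46 to -34 from this start) and Hspd1. The cyclic AMP response element, TGACGTCA, was found in 508 promoters (1.55%) and in Dnajc27 alone of the members, at bases -16 to -9.

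In all, 17 of 39 chaperone genes were higher in testis and 6 lower, where 30.4% of probes were higher and 30.6% lower, with a median of 0.25 over the members and -0.04 over all probes. Of the 12 tested J proteins 9 were higher and 0 lower. With quantile normalization 5 of these 9 kept their call, while Dnajb12, Dnajc10, Dnajc11 and Dnajc30 lost theirs. All 4 chaperonin subunits were higher. Cct3 read 1.32 and 0.92 (1.12 ± 0.13), Cct4 1.25 and 0.99 (1.11 ± 0.14), Cct5 0.77 and 0.92 (0.81 ± 0.16) and Cct2 0.85 and 0.47 (0.80 ± 0.16), with adjusted p of at most 1.5e-05. Source means of Cct4 and Cct5 were the highest of all adult sources, while Cct3 was higher in blood mononuclear cells and thymus, and Cct2 in thymus, uterus at estrus, unstimulated lymph node and epididymis tail.

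The ER members split in testis, with 3 higher and 4 lower of 12. Fkbp7 read 1.65 and 1.70, above all other adult sources (1.77 ± 0.18, adjusted p = 1.7e-14), while Pdia4 (-0.87 ± 0.15), Ppib (-0.75 ± 0.12), Fkbp2 (-0.68 ± 0.14) and Fkbp9 (-0.53 ± 0.14) were lower. Of the 6 cyclophilins 0 were higher and 3 lower, Ppic (-0.84 ± 0.22), Ppif (-0.80 ± 0.14) and Ppib. Of the 13 other co-chaperones and heat shock regulators 5 were higher and 4 lower, led by the prefoldin subunit Pfdn5 (1.64) and the lens and muscle chaperone Cryab (-1.48). Of 4 heat-inducible members, Dnaja1, Dnajb1, Fkbp4 and Hspd1, Dnajb1 was higher and none lower. Adjusted p was at most 0.0012 for these genes.

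Of 23 calls in testis 17 held under both other scalings, 11 higher and 6 lower. With 1 mean per source as the unit 4 were called, Dnajc15, Dnajb6, Dnajb1 and Cct4. Both measured male germ cell markers were higher, Akap4 (1.38) and Odf2 (0.44). In whole tissue, fewer cells of a type and less RNA per cell cannot be told apart, here and in every comparison of organs.

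**Figure D2:**
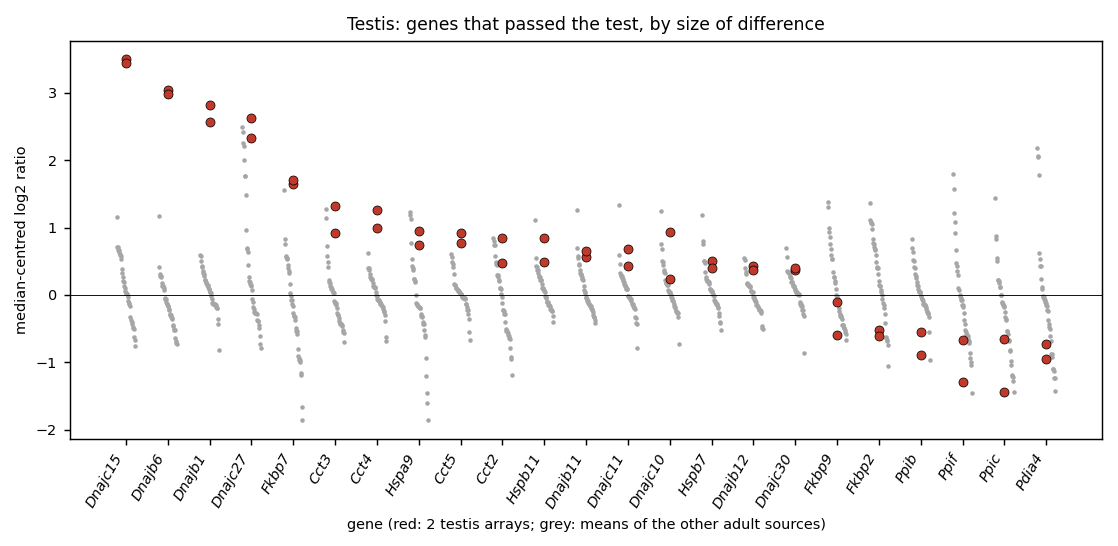
Log2 ratios (vertical axis) of the genes higher in testis, with testis arrays as coloured points and the means of other adult sources as grey dots. Dnajc15, Dnajb6 and Dnajb1 lie between 2.57 and 3.50 in testis, above the other adult sources.

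Injury was followed in kidney, liver, synovium, ileum, heart and lymph node. In the kidney after folic acid, a tubular toxin, 2 chaperone genes were higher and 1 lower than in adult kidney, where 3.65% of probes were higher and 4.05% lower (median -0.06 over the members and -0.03 over all probes). Cct2 read 0.58 and 0.44 against -0.28 and -0.29 (0.79 ± 0.23, adjusted p = 0.013), and Cct3 0.34 and 0.45 against -0.23 and -0.30 (0.66 ± 0.18, adjusted p = 0.0098). The injured arrays lay above both normal ones for both subunits. Fkbp2 read -0.30 and -0.04 against 0.25 and 0.55 (-0.57 ± 0.19, adjusted p = 0.047, and 0.22 with deposited values).

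The other subunits, Cct4 and Cct5, did not pass the test in injured kidney. A second probe of Cct2 followed the one used only in part across sources (r = 0.37), a limit wherever Cct2 is named. With all probes of a gene averaged 1 chaperone gene was higher and 2 lower. Leaving out each kidney array in turn left 0 to 2 calls: 1 without injured array 1, 2 without normal array 1, and 0 without injured array 2 or normal array 2. With only these 4 arrays in the fit 0 were called by limma (10 at an unadjusted p under 0.05), and quantile normalization called 4 higher and 7 lower. The injury marker Lcn2 was higher (0.80), and of 8 markers of dividing cells Pcna was higher (0.97) and Mcm6 lower (-1.06).

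Liver after surgery gave few calls. Regenerating liver at 6 h against its sham had 0 chaperone genes higher and 0 lower by limma (3 at an unadjusted p under 0.05), where 2.25% of probes were higher and 3.21% lower (median 0.03 over the members and 0.02 over all probes). Without the second regenerating array 2 were lower. Sham surgery at 6 h against adult fed liver had 2 higher and 0 lower, where 7.21% of probes were higher and 4.32% lower (0.04 and 0.00 for the medians). Dnajc30, a mitochondrial J protein, read 0.86 and 0.81 against 0.40 and 0.26 (0.50 ± 0.16, adjusted p = 0.029), and Ppie 1.23 and 1.19 against 0.76 and 0.79 (0.43 ± 0.14, adjusted p = 0.028). The sham arrays lay above both fed arrays. Both sham arrays were of 1 array lot, as the letters AC or AF in the array codes of the titles were read here, and both fed arrays of another, so that between these groups surgery and lot cannot be told apart. With lot as a block, estimated over all sources, 5 were higher and 1 lower, Dnajc30 (0.62, adjusted p = 0.0042) and Ppie (0.56, adjusted p = 0.0022) among the higher.

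Regenerating liver at 24 h, for which no sham was measured at that time in the sources used here, shared those fed liver arrays and had 1 gene higher and 1 lower, where 4.87% of probes were higher and 3.26% lower (-0.02 and -0.04 for the medians). Ppib read 1.15 and 1.29 against 0.77 and 0.62 (0.53 ± 0.17, adjusted p = 0.033). Hspb11, a subunit of the transport complex of cilia, read 0.20 and 0.33 against 1.13 and 1.10 (-0.85 ± 0.25, adjusted p = 0.018). None of the liver surgery calls held under both other scalings, deposited values called 0 higher and 2 lower for the sham and 0 higher and 4 lower at 24 h, and the sham calls were lost without any 1 of the 4 arrays. At 24 h, 0 were called without the second regenerating array or either fed array, and 2 were lower without the first regenerating array. Hspa9 read 1.18 and 1.29 in fed liver, 1.69 and 1.57 after sham, 1.90 and 1.79 at 6 h and 1.48 and 1.75 at 24 h of regeneration, differences that did not pass the test.

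In arthritic synovium 2 of 4 FK506-binding proteins were higher in both the acute and the chronic form, and 0 of 3 disulfide isomerases were higher or lower in either (medians -0.16 and -0.01). Of these isomerases Pdia4 differed by 0.53 ± 0.20 in acute (adjusted p = 0.075) and 0.34 ± 0.20 in chronic arthritis (adjusted p = 0.45). Pdia2 and Pdia5 had negative differences in both. In acute arthritis Fkbp7 read 2.02 and 1.71, and in chronic arthritis 1.64 and 1.50, against -0.36 and -0.29 in normal synovium (2.19 ± 0.25, adjusted p = 3.3e-11, and 1.90 ± 0.25, adjusted p = 1.1e-08). Fkbp9 read 1.24 and 1.20 in acute and 1.30 and 1.02 in chronic arthritis, against -0.52 on both normal arrays (1.74 ± 0.20, adjusted p = 4.2e-11, and 1.68 ± 0.20, adjusted p = 3.6e-10). All arthritic arrays lay above both normal ones for both genes. They did so too for genes that passed the test in neither form, among them Dnajc3, Dnajc15 and Pdia4. Both are proline isomerases of the ER. The 2 comparisons share the normal arrays, so their values are not independent of each other.

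Among cyclophilins, Ppic differed by 1.19 ± 0.31 in acute (adjusted p = 0.0046) and 1.07 ± 0.31 in chronic arthritis (adjusted p = 0.024), and Ppib by 0.55 ± 0.17 (adjusted p = 0.018) and 0.70 ± 0.17 (adjusted p = 0.0038). In acute arthritis Ppia (1.09 ± 0.31), Cct2 (0.74 ± 0.23) and Dnajb6 (0.61 ± 0.20) were also higher and Hspb6 lower (-0.68 ± 0.22). Whether acute and chronic arthritis differ was not tested. The counts were 7 higher and 1 lower in acute arthritis, where 11.4% of probes were higher and 0.313% lower, and 4 higher and 0 lower in chronic arthritis, where 4.62% were higher and 0.533% lower. The medians were 0.02 over the members and -0.01 over all probes in acute, and 0.17 and 0.04 in chronic arthritis.

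Of the 23 other ER folding genes 11 were higher and 0 lower in acute arthritis (median 0.53), led by Calr (1.62) and Lman1 (1.41), and 5 were higher and 0 lower in chronic arthritis. With 1 array left out, 2 to 4 chaperone genes were called in acute and 2 or 3 in chronic arthritis, Fkbp7 and Fkbp9 among them each time. In acute arthritis 2 remained called without the first acute array or the second normal array, 3 without the first normal array and 4 without the second acute array, and in chronic arthritis 2 without the second normal array. With only the 4 arrays compared, 16 were higher and 8 lower in acute arthritis. With quantile normalization 6 were higher and 4 lower, and with deposited values 5 and 2. Of 4 leukocyte markers 2 were higher in acute arthritis, Ptprc (1.79) and Coro1a (0.66), and 0 in chronic arthritis, and of 4 plasma and B cell markers 1 was higher in acute arthritis, Jchain (1.15). The part of infiltrating cells was not tested.

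**Figure D3:**
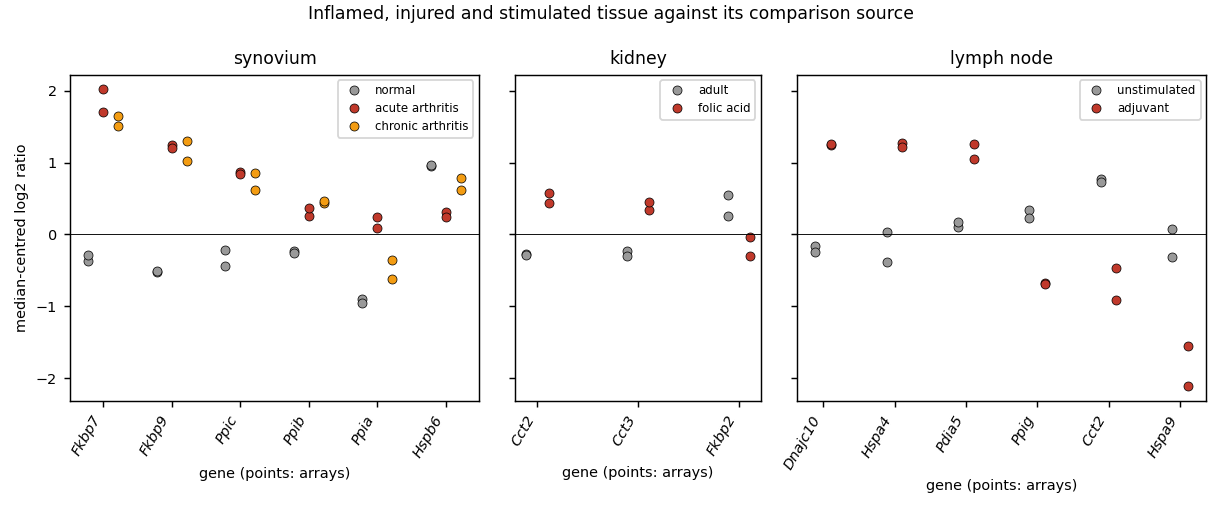
Log2 ratio of each array (points) for the chaperone genes called in synovium, kidney and lymph node, normal against arthritic, folic acid injured or adjuvant stimulated. Fkbp7 in synovium rises from -0.36 and -0.29 to 1.71 and 2.02.

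The ileum after bowel resection had 0 chaperone genes higher and 0 lower than after sham resection by limma (0 also at an unadjusted p under 0.05), where 0.0695% of probes were higher and 0.081% lower, with medians of -0.07 over the members and -0.05 over all probes. The hyperdynamic transgenic heart had 0 higher and 6 lower than its control heart, where 5.04% of probes were higher and 7.55% lower (-0.15 and -0.07 for the medians). Mitochondrial genes made up 4 of the 6. Dnajc15 read 1.28 and 1.24 against 2.12 and 2.00 (-0.80 ± 0.20, adjusted p = 0.0032), Ppif 1.79 and 1.90 against 2.62 and 2.52 (-0.72 ± 0.20, adjusted p = 0.0076), Dnajc11 0.67 and 0.49 against 1.39 and 1.38 (-0.81 ± 0.24, adjusted p = 0.015) and Hspa9 0.58 and 0.56 against 1.44 and 1.12 (-0.71 ± 0.24, adjusted p = 0.037). The transgenic arrays lay below both control arrays for all 4.

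Dnajc3 (-0.79 ± 0.24, adjusted p = 0.018) and Ppie (-0.42 ± 0.14, adjusted p = 0.035) were the others lower in the transgenic heart. Control arrays had deposited medians of -0.78 and -0.45. With deposited values Dnajc15 and Ppif alone were called, with quantile normalization 0 (3 at an unadjusted p under 0.05), and with only the 4 arrays compared 0 by limma (9 at an unadjusted p under 0.05). Without any 1 array 1 to 3 were called, 1 of them without the first control array and 3 without each of the others.

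A lymph node stimulated with complete Freund's adjuvant had 15 chaperone genes higher and 6 lower than an unstimulated node, where 23.1% of probes were higher and 17.7% lower (median 0.11 over the members and -0.01 over all probes). Dnajc10 read 1.26 and 1.24 against -0.24 and -0.16 (1.45 ± 0.23, adjusted p = 2.8e-07), the highest source mean of this gene. Hspa4, a nucleotide exchange factor of the Hsp110 group, differed by 1.42 ± 0.28 (adjusted p = 2.1e-05), though another probe of the gene did not follow it across sources (r = 0.09). All 3 disulfide isomerases were higher, Pdia5 (1.02 ± 0.27), Pdia2 (0.99 ± 0.19) and Pdia4 (0.54 ± 0.20), and of the 12 ER members 7 were higher and 1 lower. Hspa9 read -1.55 and -2.11 against 0.07 and -0.32 (-1.70 ± 0.24, adjusted p = 1e-08), and Cct2 -0.46 and -0.91 against 0.77 and 0.72 (-1.43 ± 0.23, adjusted p = 2.3e-07). Stimulated arrays lay above both unstimulated arrays for Dnajc10 and below both for Hspa9 and Cct2.

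Of these 21 calls 10 held under both other scalings, 7 higher and 3 lower, and the range between the quartiles of values spanned 1.04 and 1.07 in the stimulated arrays against 0.73 and 0.80. With quantile normalization 7 were higher and 4 lower, so that Pdia4 (0.21, adjusted p = 0.46) lost its call, and with only the 4 arrays compared 4 were higher and 3 lower. Of the 23 other ER folding genes 2 were higher and 4 lower, led by Creld2 (1.58) and Calr (-1.32). All 3 erythroid markers were higher in the stimulated node (median 1.44) and 2 of 8 markers of dividing cells lower, and their part in these values was not tested.

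In striated muscle, small heat shock proteins were higher. Heart atrium, heart ventricle, the control heart of the hyperdynamic experiment and skeletal muscle were compared, as 4 sources, with 35 other adult sources. Hspb2, which binds the kinase of myotonic dystrophy, read 2.68 and 2.52 in control heart, 0.86 and 1.13 in ventricle, 0.93 and -0.73 in atrium and 1.54 and 2.38 in skeletal muscle. The other sources ran from -1.37 to 0.74 (median -0.22), so ventricle, control heart and skeletal muscle lay above all of them and atrium among them (1.68 ± 0.32, adjusted p = 0.00063). Hspb6, which acts on the contractile apparatus, read 2.49 and 2.85, 1.25 and 1.04, 0.39 and 0.59, and 0.99 and 1.41 in the same order, against -0.66 to 1.07 (median 0.09; 1.26 ± 0.24, adjusted p = 0.00064). Hspb7, a chaperone of heart and skeletal muscle, read 1.78 and 2.61, 1.39 and 0.96, 0.76 and 0.75, and 0.10 and 0.04, against -0.52 to 0.80 (median 0.04; 1.00 ± 0.20, adjusted p = 0.0014). Skeletal muscle was low for Hspb7 and high for Hspb2.

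Ppif, the cyclophilin that opens the permeability pore of mitochondria, read 2.62 and 2.52 in control heart, 2.13 and 1.46 in ventricle, 1.11 and 0.73 in atrium and 0.05 and 0.53 in skeletal muscle, against -1.46 to 1.58 (median -0.26; 1.61 ± 0.36, adjusted p = 0.0043). Fkbp2 was lower, with source means of -1.05 to -0.29 against -0.68 to 1.37 (-1.05 ± 0.29, adjusted p = 0.033). Ppif and Fkbp2 overlapped between the groups. In all 4 genes were higher and 1 lower, where 2.8% of probes were higher and 0.428% lower (median 0.06 over the members and -0.02 over all probes), and of the 4 tested small heat shock proteins 3 were higher and 0 lower. Of 13 other co-chaperones 1 was higher, the related Cryab (2.56), and 0 lower.

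All 5 muscle calls held under both other scalings, and deposited values called 4 higher and 3 lower. Without the control heart 0 were called by limma (9 at an unadjusted p under 0.05), with adjusted p of 0.056 to 0.20 for the 5 genes, while Hspb2, Hspb6, Hspb7 and Ppif kept their calls without each of the other sources and Fkbp2 lost its own without ventricle or skeletal muscle. The transgenic hyperdynamic heart, which was not part of that test, read 2.60 and 2.43 for Hspb2, 2.06 and 2.35 for Hspb6, 1.71 and 2.37 for Hspb7 and 1.79 and 1.90 for Ppif. For the small heat shock proteins these arrays were among the highest of the series. Of both measured muscle markers Mb was higher (5.61) and Tnnt2 was not (-0.04). The 2 atrium arrays correlated with r = 0.54 over all probes.

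**Figure D4:**
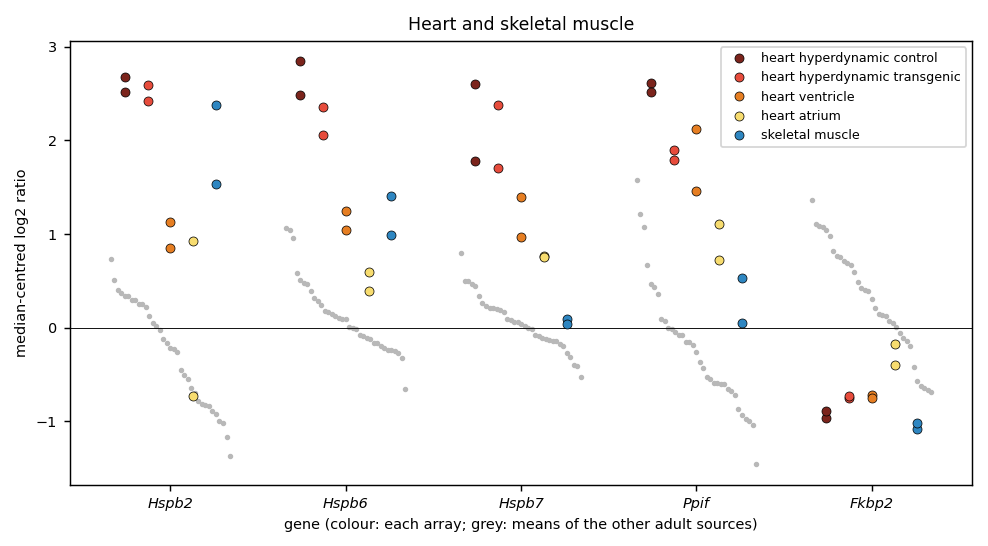
Log2 ratios (vertical axis) of Hspb2, Hspb6, Hspb7, Ppif and Fkbp2 in the striated muscle arrays (points) and the means of other adult sources (grey dots). Hspb2 reaches 2.68 in the control heart, and the atrium arrays, at 0.93 and -0.73, lie apart.

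In nervous tissue, 7 sources of the central nervous system and dorsal root ganglion were compared with 30 other adult sources. Whether these 7 regions share animals is not given, and each counted as a unit. They are parts of the same organ system, so the p-values may overstate the independent evidence. Dnajc27 ran from 0.96 in dorsal root ganglion to 2.50 in hypothalamus (median 2.11), against -0.79 to 2.48 (median -0.15), with testis the highest of the others (1.89 ± 0.26, adjusted p = 2.5e-07). Ppig ran from 0.18 to 1.09 against -1.35 to 1.09 (0.71 ± 0.16, adjusted p = 0.0009), and Dnaja1 from 0.04 to 1.14 against -0.76 to 0.57 (0.46 ± 0.14, adjusted p = 0.017, and 0.083 with deposited values). The ER genes Pdia4 (-1.42 to -0.51 against -1.24 to 2.19; -1.09 ± 0.31, adjusted p = 0.0088) and Fkbp7 (-1.86 to -0.02 against -1.19 to 1.68; -1.01 ± 0.26, adjusted p = 0.004) were lower. The groups overlapped for all 5 genes.

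These were 3 of 39 genes higher and 2 lower, where 12% of probes were higher and 8.13% lower (median -0.09 over the members and -0.03 over all probes). Deposited values called 2 higher and 6 lower, with the median of all probes at -0.13. Of the 12 ER members 0 were higher and 2 lower, and of the 23 other ER folding genes 1 was higher and 6 lower, among them Creld2 (-1.27) and the translocon-associated Tram1 (-1.23). Leaving out each nervous source in turn left 4 to 6 calls. Without dorsal root ganglion 2 were higher, and Dnaja1, whose highest mean was in that source, was no longer called. Of 5 neuron markers 4 were higher.

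Early stages of 7 organs were compared with the adult organ, the organ being the unit. The chaperonin subunits Cct2 and Cct3 were higher, by 0.87 ± 0.16 (adjusted p = 0.031) and 0.83 ± 0.16 (adjusted p = 0.033). Cct2 exceeded the adult by 1.32 in lung at E13.5, 1.04 in kidney at E18.5, 0.80 in liver at E14, 1.44 in heart at E14.5, 0.54 in brain at E18.5, 0.31 in bladder at P1 and 0.67 in small intestine at E16.5. For Cct3 the differences were 1.32, 1.04, 0.08, 0.90, 0.82, 0.67 and 1.00 in the same order. Both were positive in 7 of 7 organs, and Cct3 in liver was close to 0.

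Lung was sampled most often. Cct2 read 0.85 and 0.99 at E13.5, 0.39 and 0.28 at E16.5, -0.36 and -0.44 at E18.5 and -0.53 and -0.28 in the adult, and lay between -0.45 and -0.07 on the arrays from P1 to P24. Cct3 read 1.18 and 0.87, 0.38 and 0.34, -0.34 and -0.31, and -0.36 and -0.24 at the same stages. Both were above 0 on the E13.5 and E16.5 arrays and below 0 from E18.5 on, where 0 is not the level of the reference RNA.

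In the early stage comparison 2 of 39 genes were higher and 0 lower, where 1.81% of probes were higher and 0.278% lower (median 0.02 over the members and -0.03 over all probes). The same 2 calls held under both other scalings. With all probes of a gene averaged 1 was called, and the second probe of Cct2 followed the first only in part across sources (r = 0.37). Leaving out lung, kidney, heart or small intestine gave 0 calls by limma (5 to 10 at an unadjusted p under 0.05), leaving out brain 1, and leaving out liver or bladder 2. Of 8 markers of dividing cells 5 were higher at the early stage and 0 lower (median 1.63), led by Mcm6 (2.45), and their part in the chaperonin values was not tested.

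Intestinal tumours were compared with normal intestine, with the tumour as the unit. In 10 tumours of duodenum and jejunum against 3 normal sources, 0 chaperone genes were higher and 0 lower by limma (1 at an unadjusted p under 0.05), where 0.365% of 8484 tested probes were higher and 0.684% lower, with medians of 0.04 over the members and -0.04 over all probes. In 4 colon tumours against cecum, proximal and distal colon, 0 were higher and 2 lower, where 2.78% of 8494 probes were higher and 2.92% lower (-0.12 and -0.03 for the medians). Dnajc15 ran from -0.56 to -0.08 in the tumours and from 0.60 to 0.71 in normal large intestine (-1.03 ± 0.23, adjusted p = 0.0087). Fkbp2 ran from -0.33 to 0.13 against 0.75 to 0.82 (-0.81 ± 0.18, adjusted p = 0.0099). The groups did not overlap for either gene, and both calls held under both other scalings and without each of the 3 normal sources in turn. Tumours Col43 and Col72 had array titles beginning with #, and none of the normal large intestine sources had. The # titles also set another code against the tumour's own with vs, and do not say what that other code stands for. The term for title form was therefore estimated with the small intestine sources in the same fit. The ranges given here are not adjusted for it. The differences in small intestine and colon tumours were set against each other for 39 genes, and 0 passed the test (lowest adjusted p = 0.22).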

How the data were processed

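The authors deposited 1 value per spotted probe and array, a log ratio of tissue RNA to a universal mouse reference RNA per the labels, with log base, direction and normalization not given in the sources used here. It was read as a log2 ratio, and the deposited values run from -8.68 to 10.7. Medians across arrays lie within 0.001 of 0 for 8709 of 8729 probes with a value. A deposited value of 0 is thus the probe's middle level over the arrays and not the level of the reference. These medians do not show the log base or the direction. Gene symbols came from the platform annotation (7536 probes with 1 symbol, 14 with several, 1179 with none), and updating them through gene identifiers changed 0 of the 41. Where several probes carried 1 symbol, the most complete was used, and among equals the one numbered lowest.

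Arrays were centred on their medians in Python 3.11.15 with pandas 2.3.3 and numpy 2.4.6. Probes with values on a share of at least 0.8 of the units were tested with limma 3.58.1 in R 4.3.3, adjusted by Benjamini-Hochberg over all tested probes at a threshold of 0.05. Comparisons of single sources fitted 1 mean per source on all arrays, and a single organ was set against the mean of the other adult organs. Secretory, muscle, nervous, early stage and tumour comparisons used source means, with the organ or, for tumours, the form of the array title as a term. In the secretory, muscle and nervous comparisons, sources of the same organ counted as separate units. Genes named with a test are members past the threshold, those with the largest changes first, and the called genes with the largest changes of a list. Genes named otherwise were chosen after their values were seen.

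The members, comparisons and gene lists were chosen with earlier results of these data known. The steps were tested on simulated data. Plots were made with matplotlib 3.10.9. Promoters came from RefSeq (GRCm38.p6). Alternatives were deposited values, quantile normalization, all probes of a gene averaged, only probes with a value on every array, array lot as a block, only the arrays compared, the source as the unit, other terms and left-out arrays or sources. Protein sequences were not used here.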

Additional observations from a re-analysis of the deposited data

Results flagged for a closer look

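Among the 4 colon tumours, Fkbp2 in tumour Col1 stood apart from the other 3. Its source mean of 0.13 lay above theirs (-0.33, -0.27 and -0.25), and the gap to the nearest was 0.83 of the whole range of the group. It was still below the 3 normal sources, which lay between 0.75 and 0.82. In all 16 sets of 4 to 10 sources were looked at in this way, and chance alone sets apart about 1 in 20 such groups.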

How the results depend on the processing

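No paired analysis was possible because the labels number no replicates, and array numbers here follow accession order. Array lot, read from the titles, was fitted as a block instead. Some tumour names share a number, and with it as a random block (correlation -0.127) 0 genes were called in small intestine tumours, as without it. Of 188 counts of called chaperone genes recomputed, 65 differed by over 1.5 times from the count reported. These counts add both directions, so a change of direction does not show in them. With deposited values, secretory organs and sham liver each had 0 higher and 2 lower, against 2 higher and 0 lower reported, and were not among the 65. Of 1397 gene values recomputed, 1040 kept direction and side of the threshold, 354 lost the call and 3 reversed: Dnajc30 in liver with deposited values (-0.0414), Cct3 in lactating mammary gland with quantile normalization (0.0109) and Hspa12b there with all its probes averaged (-0.0710).

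With deposited values, the counts were 1 for liver regeneration at 6 h, 4 at 24 h, 2 for the hyperdynamic heart and 8 for nervous tissue. Quantile normalization gave 9 for lactating mammary gland, 11 for injured kidney, 0 for sham liver, 0 for regeneration at 24 h, 0 for the hyperdynamic heart, 11 for the stimulated node, 12 for islets, 0 for secretory organs and 4 for colon tumours. Averaging the probes of a gene gave 1 for secretory organs and 1 for early stages. Array lot as a block gave 1 for regeneration at 6 h and 6 for sham liver. Only complete probes gave 3 for the hyperdynamic heart, 6 for thyroid, 2 for islets, 4 for secretory organs, 2 for striated muscle, 2 for nervous tissue and 0 for colon tumours, with 24 of the 39 tested genes left. Genes lacking a value on any array could not be called in that setting. Both colon tumour genes, Dnajc15 and Fkbp2, had values on 170 of 171 arrays, so the 0 for colon tumours was fixed beforehand. Only the arrays compared gave 0 for kidney, 8 for sham liver, 0 at 24 h, 24 for acute arthritis, 0 for the hyperdynamic heart and 7 for the stimulated node. The source as the unit gave 0 for thyroid, 7 for liver, 0 for islets and 4 for testis. Beyond the genes left out of the complete set, the cause of these differences was not tested.

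Leaving out 1 array or source gave 2 to 4 in acute and 2 to 3 in chronic arthritis, 14 to 17 in the stimulated node, 20 to 22 in liver, 26 to 29 in lactating mammary gland, 17 to 21 in testis, 5 to 6 in thyroid, 0 to 2 in kidney, 1 to 3 in the hyperdynamic heart, 0 to 2 at 24 h, 0 to 2 at 6 h, 0 to 0 for sham liver, 4 to 6 in nervous tissue, 0 to 9 for secretory organs, 0 to 5 in striated muscle, 0 to 2 for early stages, 2 to 2 for colon tumours, and 0 to 0 for ileum and small intestine tumours. Spotted arrays give no counts, so 2 arrays a source set the limit, and a gene without a call may still differ. Moving from deposited to centred values shifted the median of all probes by over 0.1 for 10 of the 20 comparisons, most for liver, from -0.39 to -0.03.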

Other observations

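Activated CD4 T cells, with a single array, and blood mononuclear cells were described in no comparison of their own. Of 88 sources the T cells had the highest value of Cct2 (2.47), Cct4 (1.39) and Cct5 (1.06), each compared with the same probe elsewhere. For these 3 subunits blood mononuclear cells were low, with Cct2 at -1.06 and -0.78, Cct4 at -1.21 and -0.17 and Cct5 at -0.84 and -0.50. Cct3 differed the opposite way, at -0.15 in the T cells and at 1.61 and 0.96 in blood mononuclear cells, its highest source mean. Cct2 has a second probe, which followed the first only in part across the 88 sources (r = 0.37). The T cells also held the highest value of the cyclophilin Ppia (2.12), and blood mononuclear cells the lowest source mean (-2.04). None of these differences was tested.

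In the epididymis, a duct that secretes into the fluid around sperm, Pdia4 had its highest source means among adult organs after thyroid. Pdia4 read 2.00 and 2.08 in the head and 2.00 and 2.14 in the tail, and Dnajc3 read 1.44 and 1.29 in the head and 1.05 and 1.06 in the tail. Fkbp9 was higher in the tail (1.32 and 1.43) than in the head (0.89 and 0.97) on both arrays, a difference that was not tested. Hspa9 had its highest source mean in liver at P14, with arrays at 2.25 and 2.34.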
